A study of Mus musculus with 9 samples.

Results

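The genes described here were 10 of the 22337 genes in the deposited expression table, taken by their symbols: the NRF2 target genes Hmox1, Nqo1, Gclm, Srxn1, Txnrd1 and Slc7a11, and the basal antioxidant enzymes Sod1, Sod2, Cat and Gpx1. RNA-seq was carried out on mouse retina at postnatal day (P) 28 in 3 groups of 3 libraries. WT retinas came from non-treated C57 BL/6J mice. NS retinas came from rd10 mice, which carry a mutation of Pde6b, the rod phosphodiesterase beta subunit, and lose their rods; these mice were given normal saline. MSC-EVs retinas came from rd10 mice given extracellular vesicles (EVs) released by human umbilical cord mesenchymal stem cells (MSCs). Both rd10 groups were littermates and were injected with 1 μL per eye on P14 and P21, into the vitreous according to one note in the labels, while another note calls the injection intravenous. The WT mice were not injected and came from another supplier, so genotype, injection and supplier cannot be told apart in either comparison with WT. Nothing states that each library was a separate animal, and the p-values therefore measure only the spread between these libraries.

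NRF2, encoded by Nfe2l2, is a transcription factor that KEAP1 marks for degradation in unstressed cells. Oxidants and electrophiles release NRF2, which then pairs with a small MAF protein and binds antioxidant response elements (AREs) near the genes for glutathione synthesis, the thioredoxin system and quinone and heme breakdown. The retina is rich in light-absorbing membranes and consumes much oxygen, and in rd10 retina the dying rods are cleared by microglia while Müller glia become reactive. Superoxide dismutases, catalase and glutathione peroxidase are present in resting cells and remove superoxide and peroxide directly.

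The letters of 3 motifs were searched on both strands of the RefSeq promoters (GRCm38.p6, 250 bases before to 50 bases after a start). The ARE core TGACNNNGC was in 12.39% of 32851 promoters, the AP-1 site TGACTCA in 5.2% and the NRF2-MAF element TGANTCAGC, which can overlap an AP-1 site, in 1.19%. Promoters were given for 9 of the 10 members, all but Hmox1. The windows printed next are the members' matches, shown because they are where NRF2 or AP-1 factors could bind near a start, with the motif in capitals and 8 bases on either side, on the strand that reads the motif.
Srxn1, NRF2-MAF element 41 bases upstream, chr2:152105471-152105495, plus strand: attcacccTGAGTCAGCggccgggc
Srxn1, AP-1 site 99 bases upstream, chr2:152105414-152105436, minus strand: cagcgtggTGACTCAggccctcc
Srxn1, ARE core 33 bases downstream, chr2:152105544-152105568, minus strand: tctcactcTGACCTAGCtgcccact
Gclm, ARE core 130 bases upstream, chr3:122245415-122245439, minus strand: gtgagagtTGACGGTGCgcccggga
Txnrd1, ARE core 88 bases upstream of its second listed start, chr10:82859106-82859130, minus strand: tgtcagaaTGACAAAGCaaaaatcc
Sod1, ARE core 52 bases upstream, chr16:90220698-90220722, minus strand: cctgagtcTGACCACGCccaccttg
Srxn1 was the member with the most matches, including a second AP-1 match inside the NRF2-MAF element above. The windows of Nqo1, Slc7a11, Sod2, Cat and Gpx1 held none of these letters, which says only that the letters were not in those 300 bases, and a match is not evidence of binding.

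**Figure D1:**
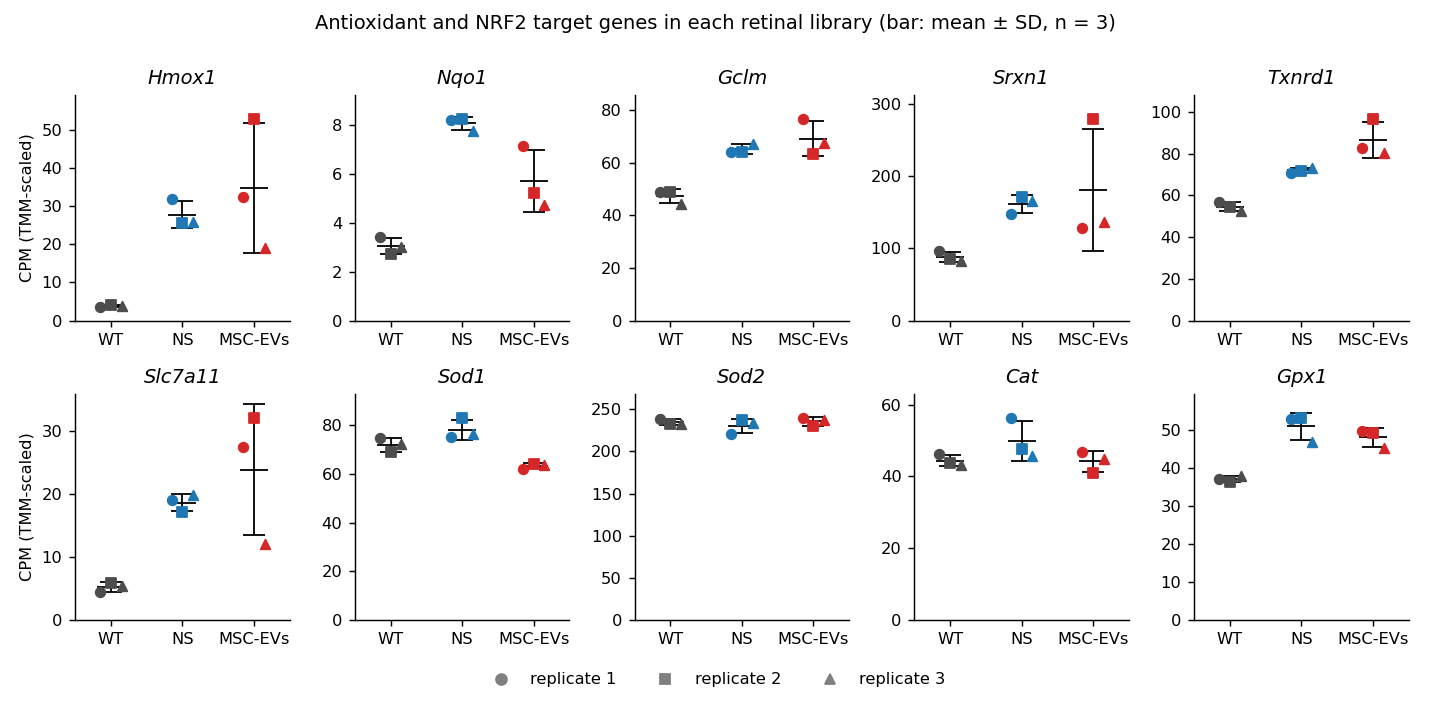
CPM (counts per 1000000, TMM-scaled over the 9 libraries, each axis from 0) of each member in WT, NS and MSC-EVs retinas; symbols are replicates and bars are mean ± SD (n = 3). The NS libraries of the 6 NRF2 targets and Gpx1 sit above the WT libraries, and the MSC-EVs libraries of Hmox1, Srxn1 and Slc7a11 are spread widely.

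The members' order of abundance was read from FPKM, the authors' value per transcript length and library depth. In WT retina, Sod1 was the most abundant member at 103.9 ± 3.62 FPKM (SD, n = 3). Sod2 followed at 38.5 ± 0.361 FPKM and Gpx1 at 37.8 ± 1.63 FPKM, and the libraries of these 2 genes overlapped. Below them stood Srxn1 at 28.9 ± 2.28, Txnrd1 at 16.3 ± 0.786, Cat at 15.7 ± 0.553 and Gclm at 12.9 ± 0.647 FPKM, of which only Txnrd1 and Cat overlapped. At the bottom were the NRF2 targets Hmox1 at 2.28 ± 0.131, Nqo1 at 1.82 ± 0.198 and Slc7a11 at 0.523 ± 0.0802 FPKM, none overlapping its neighbour. In NS retina, Srxn1 had moved up to 59.97 ± 5.08 FPKM, level with Gpx1 at 58.9 ± 4.34 and above Sod2 at 42.6 ± 1.90 FPKM. Hmox1 had moved up to 18.5 ± 2.20 FPKM, where its libraries overlapped those of Cat at 19.96 ± 2.03 and Gclm at 16.7 ± 1.96 FPKM. In MSC-EVs retina Sod1 (102.3 ± 1.47 FPKM), Srxn1 (66.6 ± 31.3 FPKM) and Gpx1 (54.1 ± 3.45 FPKM) had the highest means, and the libraries of most neighbours in the order overlapped. Only Gpx1 and Sod2, Sod2 and Txnrd1, and Cat and Nqo1 were apart.

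The libraries held between 19491717 and 62532343 estimated counts, MSC-EVs replicate 3 being the deepest, and the members' counts per library ran from 60 for Nqo1 in WT to 15305.2 for Sod2 in MSC-EVs. Pde6b was at 2414 to 2604 CPM in WT, 450.1 to 616 CPM in NS and 473.4 to 711.3 CPM in MSC-EVs, so the groups of libraries separated as labelled into WT and rd10. MSC-EVs replicates 1 and 2 held 4379 and 4421 counts of Y-linked genes, and each of the other 7 libraries held 7 to 23. The labels give no sex. In either comparison with MSC-EVs, treatment and Y-linked expression cannot be told apart except through MSC-EVs replicate 3. Lens markers summed to 191.5 CPM in WT replicate 2 and 172.6 CPM in MSC-EVs replicate 2 against 17.8 to 71.5 CPM in the other libraries. Rod markers summed to at least 17200 CPM in every library.

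Does the rd10 retina differ from WT in its antioxidant genes? Of the 10 members, 7 rose in NS retina and none fell, where rose and fell mean an adjusted p under 0.05 over all genes tested. The background was high, since 61.3% of the 14644 genes tested passed that threshold, 31.2% of them higher and 30.1% lower. All 6 NRF2 targets rose, against 1 of the 4 basal enzymes, Gpx1. Hmox1, Slc7a11 and Nqo1 also passed a log2 fold change of 1, a size that 9.16% of the genes reached upward. The median log2 fold change was 1.14 over the NRF2 targets, 0.14 over the basal enzymes and 0.01 over all genes tested.

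Hmox1 encodes heme oxygenase 1, which breaks down heme (ENSMUSG00000005413, chr8:75093621-75100589). Its CPM was 3.68, 4.07 and 3.85 in the WT libraries and 31.8, 25.5 and 25.9 in the NS libraries. The lowest NS library was several times the highest WT library. The log2 fold change was 2.84 ± 0.12 (SE; 95% interval 2.57 to 3.11; adjusted p = 4.12e-09), a rise of 7.17-fold and the largest among the members. Slc7a11 encodes xCT, the cystine carrier that feeds glutathione synthesis (ENSMUSG00000027737, chr3:49892526-50443614). It was at 4.40, 5.91 and 5.36 CPM in WT and at 19.1, 17.1 and 19.8 CPM in NS. These libraries did not overlap either, and the log2 fold change was 1.83 ± 0.13 (adjusted p = 1.59e-07). Nqo1 encodes the quinone reductase NQO1 (ENSMUSG00000003849, chr8:107388225-107403206). It rose from 3.41, 2.73 and 3.003 CPM to 8.21, 8.23 and 7.73 CPM, with a log2 fold change of 1.40 ± 0.15 (adjusted p = 7.00e-06).

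The other NRF2 targets were already abundant in WT and rose less. Srxn1, whose product sulfiredoxin repairs over-oxidized peroxiredoxins (ENSMUSG00000032802, chr2:152105516-152111376), was at 95.95, 84.9 and 82.9 CPM in WT and 147, 171 and 165.9 CPM in NS. Its log2 fold change was 0.87 ± 0.07 (adjusted p = 8.08e-07). Gclm encodes the modifier subunit of the enzyme that begins glutathione synthesis (ENSMUSG00000028124, chr3:122245557-122270732). It went from 49.0, 48.9 and 44.4 CPM to 64.0, 63.9 and 67.2 CPM, a log2 fold change of 0.45 ± 0.06 (adjusted p = 6.22e-05). Its exons overlap Gm17494 and Gm6061 in the annotation, and the counting is not stated to use strand. Txnrd1, cytosolic thioredoxin reductase (ENSMUSG00000020250, chr10:82833951-82897712), went from 57.02, 54.2 and 52.7 CPM to 70.8, 71.8 and 73.2 CPM, and its log2 fold change was 0.39 ± 0.06 (adjusted p = 9.62e-05). Across these 3 genes every NS library was above every WT library.

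Among the basal enzymes, Gpx1, the glutathione peroxidase that reduces hydrogen peroxide (ENSMUSG00000063856, chr9:108338903-108340343), was at 37.1, 36.4 and 37.9 CPM in WT and 53.0, 53.1 and 47.0 CPM in NS. Its log2 fold change of 0.46 ± 0.07 (adjusted p = 0.00013) was close to that of Gclm. Sod1, the cytosolic superoxide dismutase (ENSMUSG00000022982, chr16:90220754-90226329), was at 74.7, 68.9 and 72.5 CPM in WT and 75.3, 82.9 and 76.3 CPM in NS. These libraries did not overlap (8 members, and 33.7% of all genes tested, were higher in NS without overlap), but the log2 difference of 0.11 ± 0.06 did not pass (95% interval -0.02 to 0.25; adjusted p = 0.121). Cat, the peroxisomal catalase (ENSMUSG00000027187, chr2:103453849-103485160), ran from 43.3 to 46.2 CPM in WT and from 45.5 to 56.2 CPM in NS, with overlapping libraries (log2 difference 0.17 ± 0.08; adjusted p = 0.101). Sod2, the mitochondrial superoxide dismutase (ENSMUSG00000006818, chr17:13006846-13040063), ran from 232.8 to 238.6 CPM and from 221.1 to 237.1 CPM, a log2 difference of -0.03 ± 0.05 with an interval of -0.14 to 0.08 (adjusted p = 0.641). Of the 50-base stretches of Sod2 transcripts, 21.04% also occur in other genes, so its counts depend on how shared reads were assigned; the next highest share was 3.92%, for Gclm.

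**Figure D2:**
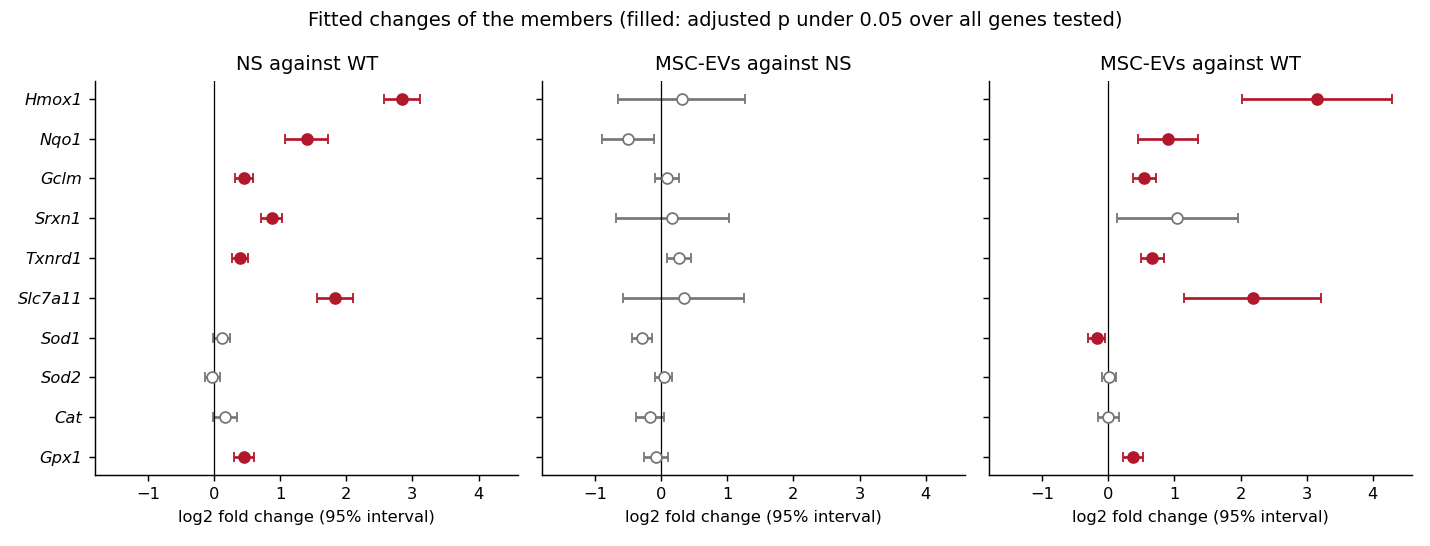
Fitted log2 fold change of each member (points) with its 95% interval (bars) in the 3 comparisons; filled points passed an adjusted p of 0.05 over all genes tested. In NS against WT 7 members are filled to the right of 0, in MSC-EVs against NS none is filled, and in MSC-EVs against WT 6 are filled to the right and Sod1 to the left.

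Markers of several cell types also moved, where 31.2% of all genes were higher and 30.1% lower. In NS against WT, 18 of 18 microglia and macrophage markers rose and their summed level went from 100.7 to 106.7 CPM in WT to 667.3 to 837.3 CPM in NS. All 14 gliosis markers rose (256.4 to 272.6 CPM against 2106 to 2562 CPM), 12 of 14 Müller glia markers rose (5918 to 6293 against 9809 to 11120 CPM), and all 14 rod markers fell (83650 to 89620 against 17200 to 24480 CPM). Monocyte and neutrophil markers rose in 6 of 7 cases (1.85 to 2.02 against 14.9 to 29.6 CPM), astrocyte markers in 4 of 5 and endothelial and pericyte markers in 9 of 14. Pigment epithelium markers rose in 5 of 13 cases, but their sums overlapped (68.2 to 122.2 against 86.7 to 346.7 CPM). Markers of cornea, iris and ciliary body rose in 3 of 4 cases. Cone markers were split, with 3 of 10 higher and 3 lower. None of 12 lens markers passed, and of 7 erythrocyte markers 1 fell and none rose. In bulk retina, fewer cells of a type and less RNA per cell cannot be told apart, and the part of these shifts in the members' changes was not tested. Of 24 inner retinal neuron markers, 17 rose and 1 fell in the main fit, with a median log2 fold change of 0.30. When libraries were scaled by these markers in place of all genes, the median of all genes moved to -0.31. The calls went from 4562 higher and 4410 lower to 2047 higher and 7247 lower. Hmox1 (log2 fold change 2.53), Slc7a11 (1.52), Nqo1 (1.09) and Srxn1 (0.57) kept their rise on that scale. The calls of Gclm (0.14, adjusted p = 0.202), Txnrd1 (0.08, adjusted p = 0.458) and Gpx1 (0.15, adjusted p = 0.250) were lost, and Sod2 became lower (-0.34, adjusted p = 0.00470). On the authors' FPKM, where limma placed 6051 genes higher and 2377 lower and the median of all genes at 0.14, all 10 members were higher.

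Did MSC-EVs alter these genes in the rd10 retina? None of the 10 members passed edgeR's test between MSC-EVs and NS, where 1.16% of 14765 genes passed, 0.914% higher and 0.251% lower. At an unadjusted p under 0.05, 1 member was higher and 2 were lower, beside 11.6% and 8.6% of all genes tested. DESeq2 called 1 member, Sod1, among 916 genes called in all. The fit of all 9 libraries together called 2, Sod1 and Txnrd1, where 1026 of 14908 genes passed. In simulated libraries, the test recovered 26 of 100 genes changed by 0.5 on the log2 scale and 99 of 100 changed by 1.5. At the spread simulated, changes of the smaller size were thus mostly not detected. Every simulated gene had the common coefficient of variation of this comparison, 12.45%. Between MSC-EVs libraries the CPM of Hmox1, Srxn1, Slc7a11 and Nqo1 had coefficients of 49.1%, 46.8%, 43.75% and 22.4%. Those of Sod1, Sod2, Gpx1, Cat, Gclm and Txnrd1 were below 12.45%, from 1.60% for Sod1 to 10.1% for Txnrd1. The simulated shares therefore do not hold for these members.

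Txnrd1 was higher in each MSC-EVs library, at 82.6, 96.4 and 80.4 CPM against 70.8, 71.8 and 73.2 CPM in NS. The log2 difference was 0.27 ± 0.08 (unadjusted p = 0.0071 in the fit over all genes, adjusted p = 0.109). Nqo1 was lower in each, at 7.15, 5.21 and 4.74 CPM against 8.21, 8.23 and 7.73 CPM, a log2 difference of -0.50 ± 0.18 (adjusted p = 0.156). Sod1 was lower as well, at 62.2, 64.1 and 63.9 CPM against 75.3, 82.9 and 76.3 CPM, with a log2 difference of -0.30 ± 0.07 (adjusted p = 0.0657). Without overlap, 1 of 10 members was thus higher and 2 were lower, beside 12.7% and 13.5% of all genes tested. Gclm (63.4 to 76.5 CPM), Gpx1 (45.3 to 49.8 CPM), Cat (40.9 to 46.7 CPM) and Sod2 (229.7 to 239.3 CPM) overlapped with NS, with log2 differences of 0.09, -0.08, -0.17 and 0.04. Their 95% intervals lay within -0.38 to 0.27, so a change of 1 on the log2 scale was outside them.

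Differences between rd10 groups went with transcript length. With genes split into 5 equal classes by the length that the authors' counts and FPKM imply, the median log2 difference between MSC-EVs and NS rose from -0.14 in the shortest class (median 1214 bases) to 0.12 in the longest (median 6035 bases). In the shortest class 30.0% of genes had MSC-EVs libraries all below NS and 2.5% all above; in the longest the shares were 4.6% and 28.8%. Sod1, at 641 bases the shortest member, lay 0.16 below the median of its class, and Nqo1 (1552 bases) 0.37 below. Txnrd1 (3097 bases) was in the middle class, whose median was 0.00. When each library's trend with length was removed, which was tried only once the trend had been seen, the log2 difference of Sod1 was -0.08 (adjusted p = 0.536), that of Nqo1 -0.41 (0.334) and that of Txnrd1 0.26 (0.198), and the genes called in all fell from 172 to 24.

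**Figure D3:**
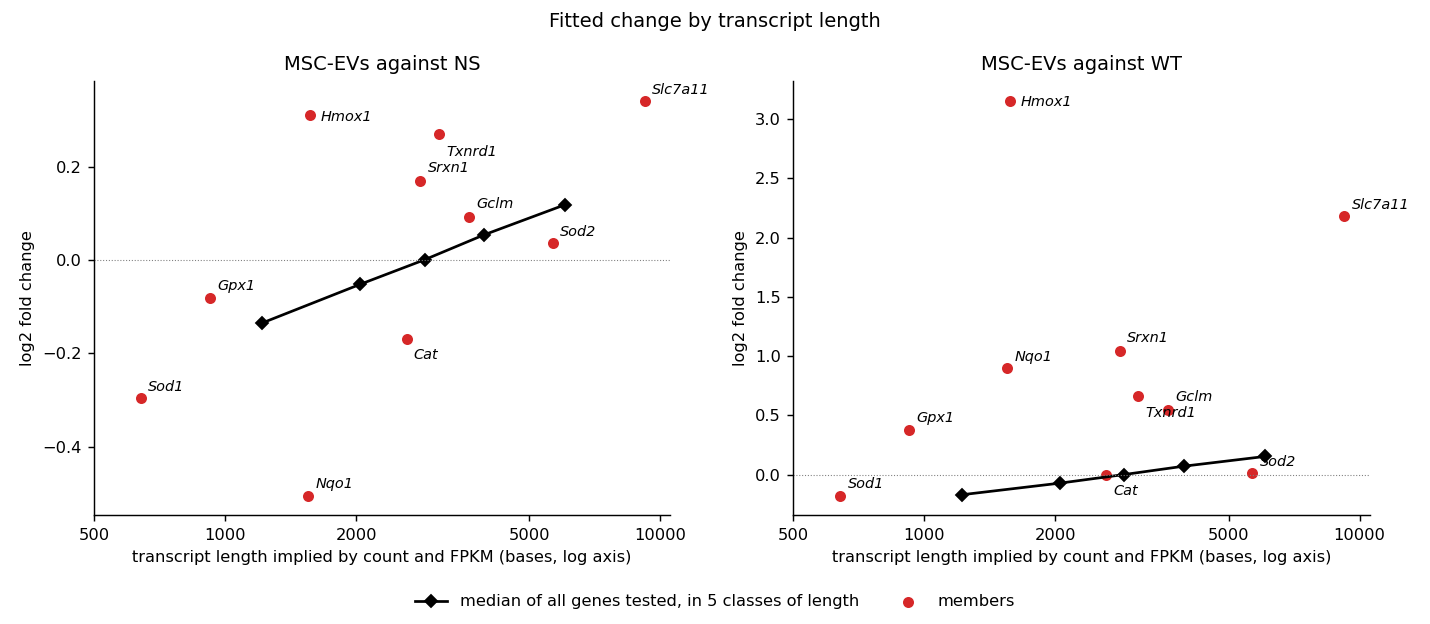
Log2 fold change of MSC-EVs against NS (left) and against WT (right) by transcript length implied by count and FPKM (bases, log axis); black diamonds are medians of all genes tested in 5 classes of length, and red points are the members. The medians climb with length, and Sod1, the shortest member, lies at the lower left of both panels.

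The MSC-EVs libraries disagreed with each other over Hmox1, Slc7a11 and Srxn1. Hmox1 was at 32.4, 52.7 and 18.9 CPM in MSC-EVs replicates 1, 2 and 3, so that its highest library was 2.79 times its lowest, against 1.25 times in NS. Slc7a11 was at 27.5, 32.0 and 12.1 CPM, again with replicate 2 highest and replicate 3 lowest, 2.65 times apart against 1.16 in NS. In both genes replicate 3 lay below every NS library and the other 2 above every NS library. Srxn1 was at 128, 278.4 and 136.2 CPM: replicate 2 was 2.11 times the mean of the others, which lay below the NS libraries. Nqo1 did not follow this pattern, since its replicate 1 was highest and all its MSC-EVs libraries were below NS. Osgin1, another NRF2-responsive gene, had the order of Hmox1 and Slc7a11 at 4.39, 13.4 and 2.10 CPM, and Maff, a small MAF partner of NRF2, was at 3.72, 9.09 and 3.31 CPM. Their NS libraries ran from 7.60 to 10.1 CPM and from 6.91 to 13.3 CPM. Nothing of this kind was seen in Sod1, Sod2, Gpx1 or Cat, whose MSC-EVs libraries were at most 1.14 times apart.

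The sign of the comparison for these genes depended on which libraries were included. The log2 differences with all libraries were 0.31 ± 0.38 for Hmox1, 0.34 ± 0.37 for Slc7a11 and 0.17 ± 0.34 for Srxn1, with adjusted p of 0.706, 0.661 and 0.829. Without MSC-EVs replicate 2, those of Hmox1 and Srxn1 turned to -0.13 and -0.28. Without MSC-EVs replicate 3, Slc7a11 was called higher at 0.67 (adjusted p = 0.0326), and without replicate 2 it was at 0.06 (adjusted p = 0.944). With both libraries carrying Y-linked counts left out, MSC-EVs replicate 3 alone was compared with NS. Hmox1, Slc7a11 and Srxn1 were then at -0.55, -0.61 and -0.23. No spread can be measured from the lone library, which the fit assumes to vary like NS. Summed microglia and macrophage markers were at 828.1, 992.5 and 571.8 CPM in MSC-EVs replicates 1 to 3 and monocyte and neutrophil markers at 46.3, 38.4 and 13.98 CPM. Gliosis markers were at 3601, 3543 and 2731 CPM, all above NS (2106 to 2562 CPM). Of 14 gliosis markers, 5 were called higher against NS, beside 0.914% of all genes. Replicate 3 was lowest in each of these sums, as in Hmox1 and Slc7a11. It was the highest MSC-EVs library for rod (24640 CPM), cone (1608 CPM) and inner neuron markers (4897 CPM). Replicate 3 lay below NS for microglia and macrophage (667.3 to 837.3 CPM in NS) and for monocyte and neutrophil markers (14.9 to 29.6 CPM), but not for gliosis. Arg1, on the monocyte and neutrophil list, was at 4.09, 3.75 and 0.25 on the log2 scale over the NS mean in MSC-EVs replicates 1 to 3. The part of these cell types in the spread was not tested.

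**Figure D4:**
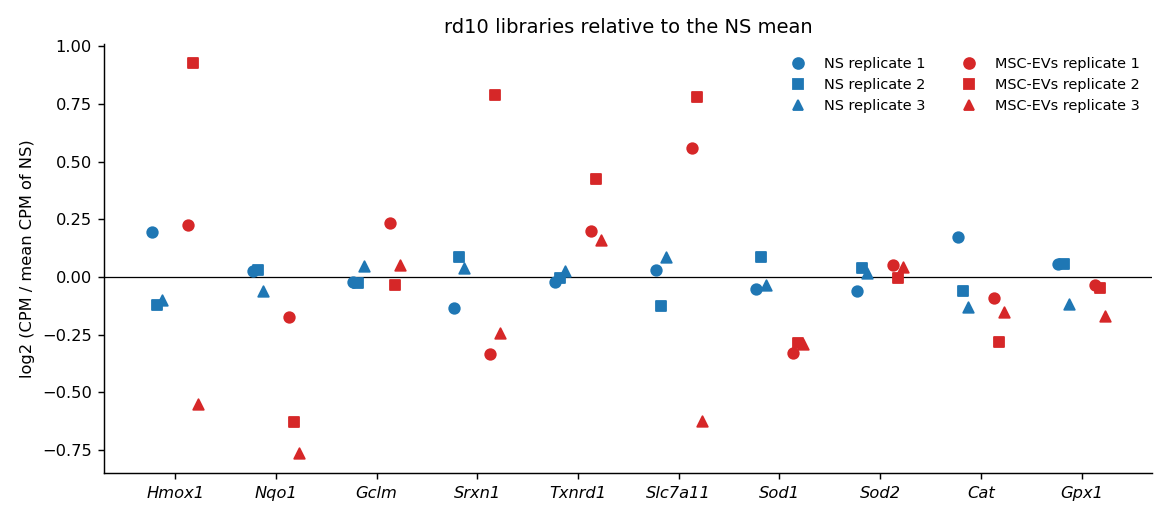
Log2 ratio of each rd10 library's CPM to the mean CPM of the 3 NS libraries for each member; blue symbols are NS and red symbols MSC-EVs replicates. For Hmox1 and Slc7a11 the MSC-EVs libraries fall on both sides of 0, from -0.55 to 0.93 and from -0.62 to 0.78, while those of Sod1 lie together at -0.33 to -0.29.

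Compared with WT, the MSC-EVs retina had 6 members higher and 1 lower, against 55.5% of 14623 genes that passed (28.3% higher, 27.2% lower). Without overlap, 7 members were higher and 1 lower, beside 31.9% and 33.3% of all genes. Hmox1 and Slc7a11 were also past a log2 fold change of 1, which 9% of genes reached upward. This comparison shares its WT libraries with that of NS and its MSC-EVs libraries with the one above, and its values are given beside them. Hmox1 was higher by 3.16 ± 0.45 on the log2 scale (adjusted p = 0.00252; NS against WT, 2.84) and Slc7a11 by 2.18 ± 0.42 (adjusted p = 0.00651; 1.83 in NS). These estimates carry a standard error over 3 times as large as in NS. With the libraries carrying Y-linked counts left out, MSC-EVs replicate 3 stood alone for its group. Hmox1 and Slc7a11 were then at 2.30 and 1.22, below the NS values. Nqo1 was higher by 0.90 ± 0.20 (1.40 in NS), Txnrd1 by 0.67 ± 0.08 (0.39), Gclm by 0.55 ± 0.08 (0.45) and Gpx1 by 0.38 ± 0.07 (0.46), with adjusted p between 8.63e-05 and 0.00397. The call of Gpx1 was lost with scaling by inner neuron markers (0.15, adjusted p = 0.221). Srxn1 had all MSC-EVs libraries above WT but its log2 difference of 1.04 ± 0.35 did not pass (adjusted p = 0.0576). The value of Srxn1 was 0.59 and passed when MSC-EVs replicate 2 was left out (adjusted p = 3.12e-05), and it was 1.25 and passed when MSC-EVs replicate 1 was left out (adjusted p = 0.0323). It also passed in DESeq2, in the fit of all 9 libraries and on both FPKM scales (adjusted p up to 0.0229), but not with Y-linked expression as a covariate (0.388).

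Sod1 was the only member lower than in WT, by -0.18 ± 0.06 on the log2 scale (adjusted p = 0.0243). The median of its class of transcript length was -0.17 in this comparison, and with the length trend removed Sod1 was at 0.07 (adjusted p = 0.342). The call was also lost with DESeq2, on FPKM and without WT replicate 1, WT replicate 3 or MSC-EVs replicate 1, and in both settings on Y-linked counts (adjusted p between 0.0541 and 0.708). Sod2 (0.01 ± 0.05) and Cat (0.00 ± 0.07) did not pass, with 95% intervals of -0.09 to 0.12 and -0.16 to 0.16.

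NRF2 itself and its partners were measured beside the members. Nfe2l2 was at 33.1, 31.6 and 29.8 CPM in WT, 53.8, 45.9 and 44.0 CPM in NS and 47.1, 56.98 and 52.9 CPM in MSC-EVs. It rose in NS against WT (log2 fold change 0.61 ± 0.09, adjusted p = 8.11e-05) and was at 0.13 ± 0.10 in MSC-EVs against NS (adjusted p = 0.501). Keap1 fell slightly in NS, from 49.8 to 54.2 CPM in WT to 42.3 to 49.1 CPM (log2 fold change -0.18 ± 0.07, adjusted p = 0.0403). Of 14 genes for NRF2 and its regulators, 6 rose and 4 fell in NS, a share of 71.4% called beside 61.3% of all genes, with a list median of 0.02. The largest rises were those of the small MAF genes Maff (3.08 ± 0.27) and Mafk (0.88 ± 0.14), while another small MAF gene, Mafg, fell by 0.38 on the log2 scale, as did Btrc, a ubiquitin ligase subunit, by 0.61.

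Over 9 lists of other pathway genes, 67 of the 127 tested rose in NS against WT and 20 fell, a share of 68.5% called beside 61.3% of all genes. With scaling by inner neuron markers the split was 38 higher and 42 lower, beside 2047 higher and 7247 lower among the 14644 genes tested. Among glutathione transferases 13 of 18 rose and 1 fell (77.8% called). The largest rise was that of microsomal Mgst1, from 3.54, 4.25 and 4.004 CPM to 17.98, 20.2 and 14.9 CPM (log2 fold change 2.17 ± 0.14). Other peroxidases and dismutase partners rose in 10 of 14 cases with none falling (71.4% called). Extracellular Gpx3 had a log2 fold change of 2.61 ± 0.50, with NS libraries at 89.6, 31.7 and 45.5 CPM. Sod3, the extracellular superoxide dismutase, was at 2.05 to 2.37 CPM in WT and 5.68 to 8.85 CPM in NS. The glutathione list had 8 of 17 genes higher and 3 lower (64.7% called), with Cbs (1.60 ± 0.21) and Ggt1 (1.498 ± 0.37) leading and Ggct at -0.56. In the thioredoxin list, 6 of 16 rose and 2 fell, 50% called beside 61.3% of all genes. Its leading genes were Msrb3, a methionine sulfoxide reductase (1.41 ± 0.13), and Txnip, which inhibits thioredoxin (1.19 ± 0.12).

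Heme breakdown and ferritin genes rose in 3 of 6 cases, 50% called beside 61.3% of all genes, with Ftl1, the ferritin light chain, going from 269 to 273.6 CPM in WT to 499 to 571.6 CPM in NS. Detoxification genes rose in 10 of 17 cases and fell in 3, a share of 76.5% called. Osgin1 went from 0.81, 0.58 and 0.60 CPM to 9.56, 7.60 and 10.1 CPM (log2 fold change 3.76 ± 0.21). In the NADPH supply list 7 of 16 genes were lower and 4 higher, a share of 68.8% called beside 61.3% of all genes, and the list median was -0.07. Me2, mitochondrial malic enzyme, fell by 0.96 and Tigar, which diverts glucose into the pentose phosphate route, by 0.83 on the log2 scale. Subunits of NADPH oxidase, the phagocyte enzyme that makes superoxide, rose in 7 of 9 cases (77.8% called) with a median of 3.13. Cybb, its catalytic subunit, was at 0.179, 0.358 and 0.551 CPM in WT and 12.6, 8.04 and 5.99 CPM in NS, and Rac2 had a log2 fold change of 4.18 ± 0.33. Microglia and macrophages express both genes, and their markers rose as given above; their part in these rises was not tested.

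**Figure D5:**
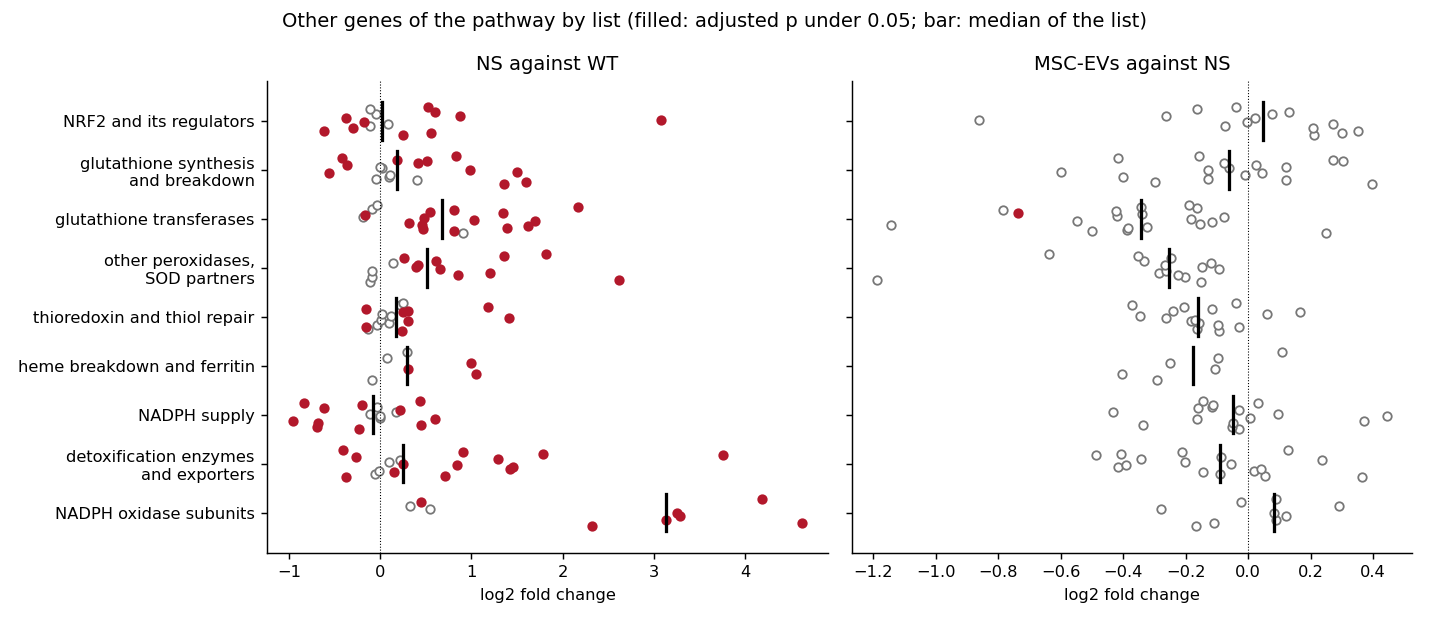
Log2 fold change of every tested gene on the 9 pathway lists (circles) in NS against WT and MSC-EVs against NS; filled circles passed an adjusted p of 0.05 over all genes tested and black bars are list medians. NADPH oxidase subunits reach 4.63 in NS against WT, and a single filled circle, Gstt1, is seen in MSC-EVs against NS.

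In MSC-EVs against NS, 1 of the 128 pathway genes tested passed, a share of 0.8% beside 1.16% of all genes. Gstt1, a theta-class glutathione transferase, fell from 29.9, 36.0 and 30.3 CPM in NS to 21.4, 19.6 and 16.7 CPM (log2 fold change -0.74 ± 0.12, adjusted p = 0.0261). Its call was lost with the length trend removed, with scaling by inner neuron markers, and when replicate 2 or 3 of NS or replicate 1 of MSC-EVs was left out. Of 19 glutathione transferases, 13 had every MSC-EVs library below NS and the list median was -0.34 against 0.00 for all genes, of which 13.5% were lower without overlap. The shortest length class held 18 of the 19, and in that class 30.0% of genes were lower without overlap and the median was -0.14. Other peroxidases showed a median of -0.25, and 8 of 14 genes were lower without overlap. That stands beside 13.5% of all genes and 30.0% of the shortest length class. The part of transcript length in this count was not tested. Prdx5 was among the 8 (81.1 to 81.95 CPM against 92.4 to 104.2 CPM, adjusted p = 0.0934). The smallest p in the remaining lists belonged to Gsk3b (0.27, adjusted p = 0.0520), Slc1a4 (0.27, 0.105), Sesn1 (-0.35, 0.0908), Ftl1 (-0.25, 0.192), Mthfd2l (-0.43, 0.0593), Aldh2 (-0.39, 0.0698) and Noxo1 (0.29, 0.623), none of which passed. In MSC-EVs against WT, 55 of 126 pathway genes were higher and 28 lower, a share of 65.9% called beside 55.5% of all genes. Prdx6, a peroxiredoxin, was higher by 1.00 ± 0.07, Gpx3 by 1.43 ± 0.38, Cybb by 4.53 ± 0.65 and Osgin1 by 3.29 ± 0.84 on the log2 scale, while Park7 (DJ-1) fell by 0.35 and Tigar by 0.80. Gstp1 was lower by -0.50 ± 0.06 there (-0.17 ± 0.07 in NS against WT), and Mgst1 higher by 1.83 ± 0.16. Park7 and Gstp1 were in the shortest length class. Its median was -0.17 in MSC-EVs against WT, where 46.0% of its genes were lower without overlap, and -0.04 in NS against WT. The part of transcript length in the falls of Park7 and Gstp1 was not tested.

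The genes whose log2 CPM followed each member most closely over the 9 libraries were searched among 13999 genes, and the correlations describe 3 groups of libraries rather than independent points. Hmox1 was most like Septin9 (Pearson's r 0.998) and Cd34 (0.997), and Slc7a11 most like Dse (0.994) and Srgn (0.993), a proteoglycan gene of blood cells. Gpx1 was most like the lysosomal genes Ctsa (0.994) and Tcirg1 (0.991). Txnrd1 followed Gab2 (0.989) and the stress-response factor gene Atf3 (0.988), Nqo1 followed Smo (0.993) and Aldh1a1 (0.990), Srxn1 followed Tubb2b (0.985) and Tiparp (0.983), and Gclm followed Actr2 (0.988) and Scn3a (0.985). The basal enzymes that did not pass in NS against WT were followed by Mob3b (0.986) and Sap18 (0.963) for Sod1, Btbd1 (0.926) and Timm29 (0.921) for Sod2, and Mrps15 (0.938) and mt-Nd3 (0.910) for Cat.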

How the data were processed

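Retinal RNA of 9 mouse libraries was enriched with oligo(dT) and sequenced. In the deposited table, the authors gave each gene an estimated count in every library, made with the tools below and not scaled. A second set of columns holds the FPKM that the authors computed from them by transcript length and depth. The submitters' processing notes name fastp, Bowtie2, HISAT2, StringTie 1.3.1 and RSEM; build and annotation are not given in the sources used here. Between 9.16% and 11.7% of genes per library had counts with decimals, and counts were rounded. Positions came from GENCODE M21 (GRCm38), matched by identifier for 22232 of 22337 genes, and promoters from RefSeq.

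For every comparison, the 6 libraries concerned were fitted alone in edgeR 4.0.16 under R 4.3.3 (filterByExpr, TMM, robust glmQLFit, glmQLFTest), with Benjamini-Hochberg adjustment over all genes tested and a threshold of 0.05. The common coefficient of variation was 7.97% for NS against WT, 12.45% for MSC-EVs against NS and 10.8% for MSC-EVs against WT. The test was checked on simulated counts with 200 genes changed and the common spread of the comparison given to every gene. Replicates of a group differed beyond sampling noise (chi-square per degree of freedom 4.10 to 31.3), so no pair was a repeat deposit of one library, while libraries from one animal could not be recognised in this way. Alternatives were DESeq2 1.42.0, limma 3.58.1 on log2(FPKM + 1) and log2(FPKM + 0.1), other scalings, filters and thresholds, all libraries in one fit, a replicate block, a Y-linked covariate and each library left out. Removal of the length trend (lowess of each library's log2 deviation on log2 length, as an offset) and the omission of both libraries rich in Y-linked counts were added after the data had been seen.

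Named were the members; in comparisons with WT, up to 2 largest rises and 2 largest falls among the called genes of each pathway list, of which the text gives the leading ones; against NS, each list's smallest p; Nfe2l2, Keap1, Cybb and Pde6b; and each member's 2 most alike genes. The pathway gene Nnt has 2 rows in the table and was left out. Members, lists and rules were chosen with earlier results of these data known.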

Additional observations from a re-analysis of the deposited data

How the results depend on the processing

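Direction and side of the threshold were kept by 170 of 190 alternative values of the members in NS against WT, 195 of 210 in MSC-EVs against NS and 172 of 210 in MSC-EVs against WT. These totals include the stricter thresholds, which reuse the main fit. In MSC-EVs against NS, where no member was called, values under those thresholds could not change. The causes of the changes below were not tested, except that stricter thresholds call fewer genes by construction. In NS against WT, Sod2 turned to 0.0043 with upper-quartile scaling, 0.14 on log2(FPKM + 1) and 0.15 on log2(FPKM + 0.1). Scaling by inner neuron markers turned Sod1 to -0.19 and Cat to -0.15 there, Gpx1 to 0.0030 in MSC-EVs against NS and Sod2 to -0.22 in MSC-EVs against WT. Removing the length trend turned Sod2 (-0.065) and Gpx1 (0.081) in MSC-EVs against NS, and Sod1 (0.074), Sod2 (-0.12) and Cat (0.039) in MSC-EVs against WT; it also called Sod1 higher in NS against WT (0.16). In MSC-EVs against NS, Hmox1 and Srxn1 turned to -0.13 and -0.28 without MSC-EVs replicate 2, their lowest values with 1 library left out, the highest being 0.62 (MSC-EVs replicate 3) and 0.37 (MSC-EVs replicate 1). With Y-linked expression as a covariate Hmox1, Srxn1 and Slc7a11 were -0.54, -0.24 and -0.61, and with both libraries of high Y-linked counts left out -0.55, -0.23 and -0.61. Both settings rest on MSC-EVs replicate 3, the only MSC-EVs library without high Y-linked counts, so they are not independent of each other. Cat in MSC-EVs against WT, at -0.0009 in the main fit, was 0.0058 with DESeq2 size factors, 0.0039 in DESeq2, 0.014 with at least 10 counts required, 0.14 and 0.15 on FPKM, 0.018 and 0.019 in the Y-linked settings, and -0.035 to 0.042 with 1 library left out.

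Requiring a log2 fold change of 1 left 3 members and 28 pathway genes in NS against WT, 2 members and 19 pathway genes in MSC-EVs against WT, and 0 pathway genes in MSC-EVs against NS. Against NS, DESeq2 called 1 member and 14 pathway genes, the fit of all 9 libraries 2 and 19, and leaving out 1 library 0 to 1 members and 0 to 9 pathway genes. The 1 pathway gene called there became 0 with inner neuron scaling, without the length trend or at an adjusted p under 0.01. It became 3 on either FPKM scale and 2 with the Y-linked covariate. In MSC-EVs against WT the covariate left 54 pathway genes. All genes called in MSC-EVs against NS numbered 172, but 916 in DESeq2, 1026 with all 9 libraries, 94 on FPKM, 676 without MSC-EVs replicate 2, 32 without NS replicate 2, and 0 when either NS replicate 3 or replicate 1 of MSC-EVs was absent, where 1991 and 2052 genes had an unadjusted p under 0.05.

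Same-numbered replicates of MSC-EVs and NS had correlated deviations of 0.0951, 0.169 and 0.264, and each sample correlated best with its own number, a hint from the data and not the design. A replicate block called 7, 0 and 7 members in NS against WT, MSC-EVs against NS and MSC-EVs against WT, and 84, 5 and 79 pathway genes. It raised the genes called in MSC-EVs against NS from 172 to 403. Depth limited Nqo1, Hmox1 and Slc7a11 most, at 60 to 132.01 counts per WT library.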
